A study of Homo sapiens with 7 samples.

Results

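Of the downstream antisense transcription start sites (daTSSs) of T47D/A1-2 cells, 979 of 2956 (33.1%) lay 0.53 to 1 kb downstream of their gene TSS. They were chosen by the gene TSS-daTSS distance, read on the strand of the gene between calls that share an identifier, so this distance is a description and is tested nowhere. Of all 10391 gene TSSs, 9.42% carried a daTSS at this distance. The labels name the cells T-47D, a human luminal breast cancer line. The A1-2 subline was engineered from it to have high levels of glucocorticoid receptor from rat and an integrated luciferase gene driven by the promoter of mouse mammary tumor virus. All libraries came from 1 condition: growth with 10% serum, then at least 24 hours in 5% charcoal dextran-treated serum, with no hormone added according to the labels. TSSs were called from Start-seq replicate 1, and steady-state RNA was given as 1 FPKM value per gene over 3 merged RNA-seq replicates. The other Start-seq replicate and the MNase-seq and FAIRE-seq data were not analysed here. Neither data set carries an error between replicates or a depth, because every call has a score of 0 and the FPKM table has 1 merged column.

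At most active promoters RNA polymerase II initiates in both directions. A sense transcript starts at the gene TSS, and an upstream antisense transcript often starts at a second core promoter, the uaTSS, and runs away from the gene. A daTSS instead lies downstream of the gene TSS on the opposite strand, so that its transcript runs back toward the gene TSS and converges with the sense transcript. Start-seq sequences the capped 5’ ends of short nuclear RNAs and so places an initiation site at 1 nucleotide even where the RNA is unstable. FPKM counts sequenced fragments scaled to transcript length and library size, and measures steady-state RNA. The RNA-seq libraries were poly-A enriched, so RNA without a poly-A tail would be counted too low.

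Defining markers were set beside the label of a luminal epithelial line. The luminal keratin genes KRT8 and KRT18 stood at 1142 and 555 FPKM, GATA3 at 360, the estrogen receptor gene ESR1 at 44.1 and the progesterone receptor gene PGR at 68.5. The mesenchymal marker VIM stood at 0.864 FPKM and the leukocyte marker PTPRC at 0.0208.

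The sequence at these daTSSs most often had CA at -1 and +1, and a subset of 11 intronic sites shows the range of starts. Each is printed on the antisense strand, 5’ to 3’, over 61 nt from hg19, with the bases at -1 and +1 in capitals.

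ACTL6A (chr3:179281373-179281433, minus strand): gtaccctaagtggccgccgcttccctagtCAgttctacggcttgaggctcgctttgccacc
EZH2 (chr7:148580749-148580809, plus strand): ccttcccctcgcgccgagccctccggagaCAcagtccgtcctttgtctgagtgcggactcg
NCOR1 (chr17:16118146-16118206, plus strand): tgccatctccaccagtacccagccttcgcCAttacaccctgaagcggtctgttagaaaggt
ELF5 (chr11:34534651-34534711, plus strand): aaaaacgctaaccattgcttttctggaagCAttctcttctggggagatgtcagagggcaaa
NR4A1 (chr12:52417551-52417611, minus strand): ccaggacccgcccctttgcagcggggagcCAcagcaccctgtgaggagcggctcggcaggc
HSPA4 (chr5:132388502-132388562, minus strand): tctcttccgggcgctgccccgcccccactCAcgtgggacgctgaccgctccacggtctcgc
KRT7 (chr12:52627642-52627702, minus strand): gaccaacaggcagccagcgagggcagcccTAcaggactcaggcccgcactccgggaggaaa
ARF1 (chr1:228271379-228271439, minus strand): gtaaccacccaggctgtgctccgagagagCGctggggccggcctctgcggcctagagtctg
DSTN (chr20:17551307-17551367, minus strand): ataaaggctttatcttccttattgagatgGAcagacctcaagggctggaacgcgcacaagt
NELFCD (chr20:57557080-57557140, minus strand): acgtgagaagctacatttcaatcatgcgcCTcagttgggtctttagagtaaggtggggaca
CDK1 (chr10:62539106-62539166, minus strand): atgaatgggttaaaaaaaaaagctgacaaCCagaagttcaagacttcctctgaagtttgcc

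The sites of ACTL6A, EZH2, NCOR1, ELF5 and NR4A1 carry the initiator-like sequence, defined as CA over -1 and +1 with A or T at position +3. The site of HSPA4 carries CA without A or T at +3, and those of KRT7 and ARF1 carry another pyrimidine-purine pair. The sites of DSTN, NELFCD and CDK1 start without such a pair.

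The initiator-like sequence was found at 264 of the 979 daTSSs (27.0%, exact Clopper-Pearson 95% interval 24.2% to 29.9%), beside 24.8% of the 1977 other daTSSs (22.9% to 26.8%). A pyrimidine-purine pair over -1 and +1 was present at 663 sites (67.7%, 64.7% to 70.6%), beside 66.6% of the other daTSSs. CA accounted for 396 starts (40.4%), followed by TA with 99 and TG with 93. For each of these shares the interval overlapped that of the other daTSSs. TATAA or TATAT, on the antisense strand and beginning at -35 or later but before -24, was found at 15 sites (1.53%, 0.860% to 2.51%), beside 1.01% of the other daTSSs. Every interval over sites covers counting error in 1 library only, and sites of a library are not replicates.

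GC boxes and ETS cores were sparser upstream of these daTSSs than upstream of their gene TSSs, as they were for the other daTSSs. The GC box, searched as GGGCGG on either strand, lay in the 50 nt upstream of 11.3% of these daTSSs (9.42% to 13.5%) and of 16.4% of the other daTSSs (14.8% to 18.1%). From the nearest class to the farthest the shares were 22.1%, 18.2%, 16.9%, 11.3% and 9.82%, so that the class at 1 to 2 kb had fewer still. Their own gene TSSs carried it at 29.9%, beside 26.4% for the other daTSSs and 27.4% of all gene TSSs. In the nearest class the order was the reverse, with 22.1% upstream of the daTSS and 18.6% upstream of the gene TSS, with overlapping intervals. Both shares come from the same promoters, and the intervals do not take this pairing into account. Among the printed sites, those of NR4A1 and HSPA4 had a GC box in this window. CCAAT, on either strand, was found upstream of 4.49% of these daTSSs and 4.20% of the other daTSSs. The ETS core CCGGAAG was found upstream of 1.63% of them and of 6.54% of their gene TSSs, beside 1.57% and 6.73% for the other daTSSs. A match is a description of letters and not of a bound factor.

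The distances had a median of 708 nt, with quartiles of 608 and 825 nt. Counted in bins of 25 nt, they peaked at 576 to 600 nt with 88 daTSSs, and the last 2 bins held 24 and 34. The authors searched up to 2000 nt and kept for each gene TSS the 1 position with the most reads, so that a weaker antisense start nearer to the gene TSS would not be listed. The daTSSs of CMAS, ERLIN1, GANAB and RNF130 lay on the lower limit itself, and those of GRN, MRFAP1L1, SNUPN, TRMT1 and TSPAN3 lay 1 nt short of it. The daTSSs of EEIG2 and HNRNPF lay on the upper limit of 1000 nt, and the nearest beyond it, that of POLR3E, lay 2 nt further.

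**Figure D1:**
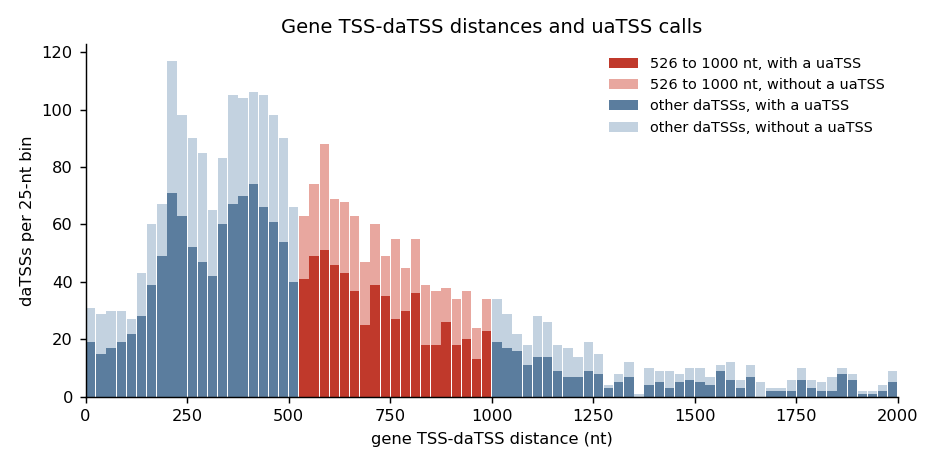
Number of daTSSs in 25-nt bins of gene TSS-daTSS distance, with the 979 daTSSs at 0.53 to 1 kb in red and the other daTSSs in blue; dark and pale parts have and lack a uaTSS. Within the red range the bins are highest at 576 to 600 nt, with 88 daTSSs, and decline toward 1000 nt.

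Of the 979 gene TSSs, 974 were assigned to a protein-coding gene. In 837 cases the called gene TSS lay within 100 nt of the annotated start, with a median of 8 nt. Genes on the plus strand contributed 475 and genes on the minus strand 504. TNPO1, a nuclear import receptor gene, had a daTSS at this distance at each of 2 gene TSSs, 663 and 666 nt downstream. ZFHX3, a homeobox transcription factor gene, also had 2, at 721 and 573 nt.

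A uaTSS was called at 595 of the 979 gene TSSs (60.8%, exact interval 57.6% to 63.8%), beside 61.7% of the gene TSSs with another daTSS and 53.1% of all gene TSSs. By distance, the share was 65.0% for daTSSs at 0.33 to 0.53 kb (61.5% to 68.4%) and 54.7% for those at 1 to 2 kb (49.9% to 59.4%). The value at 0.53 to 1 kb lay between them, and its interval overlapped both. Within the range, the share was 63.5% at 0.53 to 0.65 kb (58.3% to 68.5%), 60.5% at 0.65 to 0.8 kb (54.9% to 65.9%) and 57.7% at 0.8 to 1 kb (51.9% to 63.4%), with overlapping intervals. A called gene TSS of another gene on the opposite strand within 1000 nt upstream occupied the uaTSS window at 38 of the 979 gene TSSs (3.88%, 2.76% to 5.29%). That share was 0.925% for daTSSs at 0.33 to 0.53 kb and 8.71% for those at 1 to 2 kb. The authors removed any daTSS within 1000 nt of a RefSeq-annotated start on its strand, which is the strand of such a neighbour. This filter removes more daTSSs at short distances, and its part in these shares was not tested. Leaving out gene TSSs with such a neighbour, a setting added after the values were seen, gave a uaTSS at 61.8% of the remaining 941 (58.7% to 65.0%). The same setting gave 62.4% for the other daTSSs, 57.9% for all gene TSSs and 56.0% without a daTSS, since such a neighbour stood at 11.5% of all gene TSSs. The difference from all gene TSSs was thus smaller than with these gene TSSs kept.

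The uaTSSs lay at a median of 208 nt upstream (quartiles 142 and 324 nt, order-statistic 95% interval 191 to 221 nt). The median was 202 nt for the other daTSSs (191 to 211 nt) and 198 nt at gene TSSs without a daTSS (192 to 204 nt). By class, it was 187 nt for daTSSs at 0.33 to 0.53 kb (175 to 198 nt) and 257 nt for those at 1 to 2 kb (226 to 290 nt), and the latter interval lay above that of the 0.53 to 1 kb class. Across the 595 gene TSSs with both calls, the uaTSS and daTSS distances had a Spearman rho of -0.0016 and a Pearson r of -0.0045, given as a description over sites of 1 library. Both antisense starts together enclosed a median of 939 nt (quartiles 810 and 1096 nt).

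The 5 widest enclosed regions belonged to genes between 0.214 and 49.9 FPKM. NFKBID, a nuclear inhibitor of NF-kappaB gene, had 1938 nt between its uaTSS and daTSS and an FPKM of 0.749. ASF1A, which encodes a histone chaperone, had 1828 nt and 10.9 FPKM. H4C16, a histone H4 gene, had 1795 nt and 0.214 FPKM in these poly-A enriched libraries. HMGB1, which encodes an architectural chromatin protein, had 1701 nt and 49.9 FPKM, and HIVEP2, a zinc finger transcription factor gene, had 1643 nt and 3.45 FPKM.

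Genes with a daTSS at 0.53 to 1 kb were broadly expressed. Their median FPKM was 18.3 (quartiles 7.86 and 43.8, order-statistic 95% interval 16.6 to 20.0, n = 960 gene TSSs with a value), the same to 3 digits as for the other daTSSs (18.3, n = 1958). It was 16.3 (15.6 to 16.9) at the 7298 gene TSSs without a daTSS. On the log2(FPKM + 0.1) scale the medians were 4.20 (4.06 to 4.33), 4.20 (4.08 to 4.30) and 4.04 (3.98 to 4.09). At least 1 FPKM was reached by 932 of 960 (97.1%, 95.8% to 98.1%), beside 96.3% of the other daTSSs and 93.0% of gene TSSs without a daTSS. FPKM 0 was listed for SLC9C1, a sodium/proton exchanger gene, and IL7, a cytokine gene.

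Medians of the neighbouring classes were 20.1 FPKM at 0.33 to 0.53 kb and 23.7 at 1 to 2 kb. In pairs of 1 gene TSS from each class, the one with a daTSS at 0.53 to 1 kb had the higher FPKM in 48.5% of pairs against 0.33 to 0.53 kb and in 47.0% against 1 to 2 kb, where 50% would mean no difference. Against daTSSs up to 0.2 kb the percent was 57.9%, and against 0.2 to 0.33 kb it was 55.2%. Within the class, FPKM medians were 17.4, 19.7 and 18.1 at 0.53 to 0.65, 0.65 to 0.8 and 0.8 to 1 kb, with overlapping intervals. Across the 960 gene TSSs, distance and log2(FPKM + 0.1) had a Spearman rho of 0.020 and a Pearson r of 0.012.

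**Figure D2:**
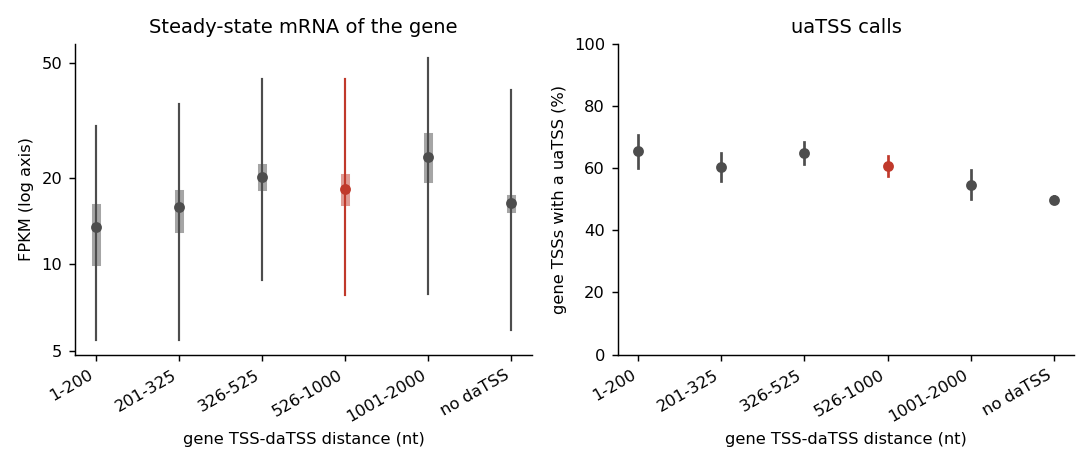
Left, median FPKM (points, log axis) with quartiles (thin lines) and the 95% interval of the median (thick bars) by gene TSS-daTSS distance and for gene TSSs without a daTSS; right, percent of gene TSSs with a uaTSS with its exact 95% interval. The 0.53 to 1 kb class, in red, has a median of 18.3 FPKM and a uaTSS share of 60.8%, between the neighbouring distance classes in the share.

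Gene TSSs with a uaTSS had the higher median FPKM, in the class and outside it. The median was 21.6 FPKM (18.8 to 24.6, n = 585) with a uaTSS and 13.5 (11.5 to 16.6, n = 375) without one, and the intervals did not overlap. The medians were 21.1 and 13.0 FPKM for the other daTSSs, 18.6 and 13.9 at gene TSSs without a daTSS, and 19.5 and 13.7 over all gene TSSs. The share that had a uaTSS rose over ranges of FPKM, from 10 of 28 (35.7%, 18.6% to 55.9%) under 1 FPKM to 140 of 275 (50.9%, 44.8% to 57.0%) at 1 to under 10. It was 360 of 555 (64.9%, 60.7% to 68.8%) at 10 to under 100 and 75 of 102 (73.5%, 63.9% to 81.8%) at 100 or more. Over all gene TSSs in the same ranges it was 183 of 609, then 48.1%, 56.9% and 63.0%. Of all gene TSSs in these ranges, 4.60%, 9.03%, 9.77% and 11.6% carried a daTSS at 0.53 to 1 kb. The corresponding shares for daTSSs at other distances were 11.8%, 18.6%, 20.3% and 19.0%.

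The 10 genes with the highest FPKM stood between 407 and 878 FPKM. ACTB, which encodes beta-actin, had 878 FPKM, a uaTSS 148 nt upstream and a daTSS 820 nt downstream in intron 1. The ribosomal protein genes RPS14, RPL38 and RPL19 had 787, 721 and 570 FPKM, with daTSSs 602, 607 and 990 nt downstream. TMBIM6, which encodes an endoplasmic reticulum membrane protein that limits cell death, had 640 FPKM and a daTSS at 646 nt. ARF1, a small GTPase gene of Golgi vesicle transport, had 508 FPKM and a daTSS at 992 nt. PFDN5, a prefoldin chaperone subunit gene, had 474 FPKM, and TMSB10, a thymosin gene, had 459. PSMB4, a proteasome subunit gene, had 430 FPKM and a daTSS at 528 nt, near the lower limit. CRABP2, which encodes a retinoic acid carrier, had 407 FPKM and no uaTSS. It shared the absence of a uaTSS with RPL38, with DSTN, an actin depolymerizing factor gene (382 FPKM), with DYNLL1, a dynein light chain gene (354 FPKM), and with PSMB7, a proteasome subunit gene (312 FPKM).

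Several subunits of chromatin regulators carried such a daTSS. Of 23 gene TSSs of SWI/SNF remodeler subunits, 4 had a daTSS in the range (17.4%, beside the 9.42% of all gene TSSs): ACTB, ACTL6A (162 FPKM, 689 nt), the catalytic subunit gene SMARCA4 (48.1 FPKM, 715 nt) and the bromodomain gene BRD7 (14.0 FPKM, 541 nt, no uaTSS). Of 28 gene TSSs of HDAC, NuRD and SIN3 subunits, 4 did (14.3%). These were the NuRD helicase gene CHD4 (78.6 FPKM, 896 nt), the corepressor genes RCOR1 (751 nt) and NCOR1 (615 nt), and SAP30 (541 nt). Of 47 gene TSSs of histone lysine methylation enzymes, 4 did (8.51%). They were the SET domain gene SETD3 (922 nt), the Polycomb methyltransferase gene EZH2 (600 nt), the demethylase gene KDM3B (718 nt) and the methyltransferase gene NSD1 (839 nt). SETD3 stands here only as a member of the list, and whether it acts on histones was not examined. Of the daTSSs at any distance in these lists, 4 of 11, 4 of 8 and 4 of 14 lay in the range, in the order named. These were 36.4%, 50% and 28.6%, beside 33.1% of all daTSSs. With 4 sites in each list, these shares are counts and were not set against chance.

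Genes of the luminal lineage and of transcription factors were also among them. Of 36 gene TSSs of hormone receptors and luminal factors, 4 carried a daTSS in the range (11.1%, beside the 9.42% of all gene TSSs), and all 4 also had a uaTSS. GATA3, a luminal lineage transcription factor gene, had 360 FPKM and a daTSS at 587 nt. ELF5, an ETS factor gene of the mammary epithelium, had 135 FPKM and a daTSS at 622 nt, TFAP2A 76.3 FPKM and 982 nt, and the keratin gene KRT7 60.7 FPKM and 671 nt. Among immediate early genes, 4 of 33 gene TSSs did (12.1%): BTG1 (905 nt), the orphan nuclear receptor gene NR4A1 (676 nt, no uaTSS), ZFP36L2 (540 nt) and the AP-1 gene JUN (743 nt). Of 40 gene TSSs of cell cycle control genes, 4 did (10.0%). They were the kinase genes CDK4 (154 FPKM, 748 nt) and CDK1 (131 FPKM, 900 nt), TFDP2 (920 nt) and E2F3 (533 nt). Of the daTSSs at any distance in these lists, 4 of 13, 4 of 15 and 4 of 16 lay in the range, in the order named. These were 30.8%, 26.7% and 25%, beside 33.1% of all daTSSs.

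Of the lists of the transcription and translation machinery, mitochondrial ribosomal protein genes had the most such daTSSs, with 9 of 73 gene TSSs (12.3%, beside the 9.42% of all gene TSSs), 5 of them with a uaTSS. MRPL41 (174 FPKM, 588 nt), MRPL58 (97.4 FPKM, 576 nt), MRPL53 (85.6 FPKM, 820 nt) and MRPS15 (82.0 FPKM, 746 nt) had the highest FPKM among them. Cytosolic ribosomal protein genes had 5 of 77 (6.49%), with RPL37 (159 FPKM, 592 nt) and RPS23 (41.2 FPKM, 561 nt) besides those above. RNA polymerase II initiation machinery genes had 4 of 44 (9.09%). These were the TFIID gene TAF12 (688 nt), the TFIIH cyclin gene CCNH (853 nt), POLR2D (613 nt) and POLR2M (568 nt), and they made up 4 of the 5 daTSSs of that list, where 33.1% of all daTSSs fell in the range. Pausing and elongation factors had 1 of 27 (3.70%), the NELF subunit gene NELFCD (85.5 FPKM, 745 nt). Heat shock protein and DNAJ genes had 1 of 56 (1.79%), HSPA4 (50.1 FPKM, 756 nt). ZNF genes had 25 of 391 (6.39%), with a median of 6.11 FPKM. Among them, ZNF703, ZNF638, ZNF598 and ZNF787 had the highest, at 21.2, 19.5, 17.9 and 12.9 FPKM. Of the daTSSs at any distance of mitochondrial and cytosolic ribosomal protein genes, 9 of 20 (45%) and 5 of 22 (22.7%) lay in the range. The counts were 1 of 8 for pausing and elongation factors, 1 of 6 for heat shock protein and DNAJ genes and 25 of 106 (23.6%) for ZNF genes.

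Of the daTSSs with an annotated gene, 642 of 977 (65.7%, 62.6% to 68.7%) were intronic in that no exon of any transcript of the gene covered them, beside 57.2% of the other daTSSs. By distance it was 60.4% at 0.33 to 0.53 kb and 78.4% at 1 to 2 kb. In the transcript that starts nearest, 703 lay in intron 1 (72.0%, 69.0% to 74.8%), the same share to within 1 percentage point as at 0.33 to 0.53 kb (72.0%) and at 1 to 2 kb (72.4%). Another 64 lay in intron 2 and 64 in exon 2, while 99 lay in exon 1 (10.1%), a feature that held 17.2% of the daTSSs at 0.33 to 0.53 kb. Of the 176 in an exon of that transcript, 111 (63.1%) lay in coding sequence, 28 in a 5’ UTR, 11 in a 3’ UTR and 26 in a non-coding transcript. JUN, whose exon 1 extends 2506 nt from the gene TSS, had its daTSS in the 5’ UTR, and PCBP1, an RNA-binding protein gene, had its daTSS in the coding sequence of a 1738-nt exon 1.

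**Figure D3:**
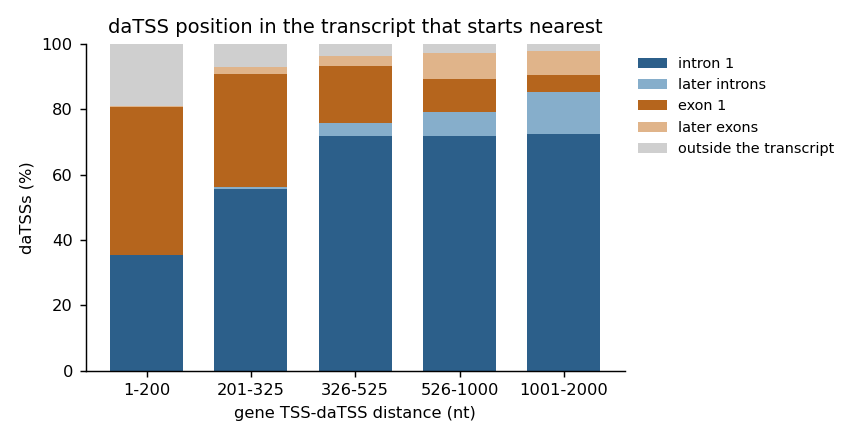
Percent of daTSSs by position in the transcript that starts nearest to the gene TSS, for 5 ranges of gene TSS-daTSS distance (stacked bars). At 0.53 to 1 kb, 72.0% lie in intron 1 and 10.1% in exon 1.

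Exon 1 ended at a median of 194 nt downstream of these gene TSSs (180 to 208 nt), beside 192 nt (181 to 205 nt) for the other daTSSs and 163 nt (159 to 168 nt) at gene TSSs without a daTSS. The daTSS lay a median of 494 nt beyond that end (quartiles 296 and 635 nt). It lay past the end of exon 1 in 860 of 977 cases (88.0%), beside 71.0% of the other daTSSs, 79.1% at 0.33 to 0.53 kb and 94.8% at 1 to 2 kb. It lay within 100 nt past that end in 27 (2.76%), beside 9.22%, 6.21% and 1.12%. Both shares thus followed the order of the distance classes. Distance to the daTSS and the end of exon 1 had a Spearman rho of 0.096 and a Pearson r of 0.0068 over the 977 sites.

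The CpG islands over these promoters reached further into the gene than those at 0.33 to 0.53 kb. An island overlapped the gene TSS in 853 of 979 cases (87.1%, 84.9% to 89.2%), beside 83.3% for the other daTSSs (81.6% to 84.9%) and 82.1% for gene TSSs without a daTSS. It ended a median of 618 nt downstream (582 to 650 nt), beside 506 nt (473 to 520 nt) at 0.33 to 0.53 kb and 808 nt (718 to 903 nt) at 1 to 2 kb, and these 3 intervals did not overlap. At gene TSSs without a daTSS the median was 460 nt (451 to 469 nt). Upstream, the median extents were 364 nt (333 to 395 nt) for the class and 386 nt (375 to 394 nt) without a daTSS.

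Relative to that downstream edge, the daTSSs lay at a median of 93 nt outside the island (58 to 127 nt), and 340 of 853 (39.9%) lay inside it. The share inside was lower in each farther class, from 92.9% up to 0.2 kb through 81.8% and 65.8% to the 39.9% here and 23.2% at 1 to 2 kb. Within 250 bp of the edge lay 466 (54.6%, 51.2% to 58.0%), beside 52.6% of the other daTSSs, with 68.0% (64.3% to 71.6%) at 0.33 to 0.53 kb and 28.5% (23.9% to 33.5%) at 1 to 2 kb. Within the class the share was 59.6% at 0.53 to 0.65 kb, 58.3% at 0.65 to 0.8 kb and 44.6% at 0.8 to 1 kb. Distance to the daTSS and the downstream extent of the island had a Spearman rho of 0.15 and a Pearson r of 0.078 over the 853 sites. ACTB and ACTL6A had their daTSSs inside the island, which ended 1197 and 749 nt downstream, and GATA3 had an island that extended to 1690 nt. RPS14 had its daTSS 602 nt downstream and outside an island that ended at 428 nt.

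GC content rose across the daTSS toward the gene TSS, unevenly, with the steepest rise in the 200 nt upstream of the daTSS. Over the 500 nt downstream of the daTSS, read on the antisense strand and so toward the gene TSS, it averaged 64.3%, and over the 500 nt upstream 51.6%. The difference of 12.6 percentage points (SD 10.7 over 979 sites) compared with 13.4 (SD 10.6, n = 757) at 0.33 to 0.53 kb and 7.41 (SD 10.1, n = 448) at 1 to 2 kb, and 866 sites (88.5%) had the higher GC content downstream. Over windows of 100 nt the difference was 1.39 percentage points (SD 9.58). In 50-nt bins, GC content rose from 44.9% in the bin farthest upstream to 51.8% in the bin from -200 to -151 nt. It reached 59.7% and 59.8% in the bins just upstream and just downstream of the daTSS. Past the daTSS the rise was slower at first, to 62.0% in the bin from 150 to 199 nt downstream. It reached 69.5% in the bin from 650 to 699 nt downstream, near the median position of the gene TSS. In the 200 nt around the gene TSS, GC content averaged 68.8% (SD 8.82) in this class and 67.2% (SD 8.77) without a daTSS. The part that GC content has in the intron, island and motif values was not tested.

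Few of these daTSSs coincided with an annotated start of another transcript. A GENCODE transcript on the strand of the daTSS started within 100 nt of 31 of the 979 (3.17%, 2.16% to 4.46%), beside 5.87% of the other daTSSs (lower limit of the interval 4.87%), and the intervals did not overlap. The class at 1 to 2 kb had 4.24% (2.57% to 6.54%), an interval that overlapped that of the 979. Starts of long non-coding RNAs, looked at after their values were seen, accounted for 20 (2.04%, beside 4.30% of the other daTSSs) and starts of protein-coding genes for 10 (1.02%, beside 1.37%). The authors had removed daTSSs near a RefSeq mRNA start on the same strand. Among the RNAs were MYG1-AS1, BHLHE40-AS1 and KIF23-AS1, which start 34, 13 and 11 nt upstream of the daTSSs of MYG1, BHLHE40 and KIF23, and PCBP1-AS1, which starts 55 nt downstream of that of PCBP1. A start of CENPT, a centromere protein gene, lay 6 nt downstream of the daTSS of THAP11, and starts of DPAGT1 and EXOSC3 lay 32 and 24 nt upstream of those of C2CD2L and DCAF10. Within 1000 nt, a GENCODE start on the strand of the daTSS was found for 214 of the 979 (21.9%), beside 24.4% of the other daTSSs.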

How the data were processed

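The authors filtered Start-seq reads for quality, trimmed adapters with Cutadapt 1.2.1, aligned them to hg19 with Bowtie 0.12.8 and called start positions from replicate 1. A daTSS needed at least 5 reads at 1 position of the 2000 nt downstream, and the uaTSS window was 1000 nt. The authors removed a daTSS within 1000 nt of a RefSeq-annotated start on its strand. They also removed a daTSS if a gene-strand position within 1000 nt upstream of it held at least 10% of the gene TSS reads. The deposited FPKM values were estimated by the authors with Cufflinks 2.2.1 on 3 merged replicates of poly-A enriched libraries. Depth per library is unknown.

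Calls were joined by identifier. Distance classes, limits included, were 1 to 200, 201 to 325, 326 to 525, 526 to 1000 (the members) and 1001 to 2000 nt, and the text gives them in kb. Genes were assigned from GENCODE v44 lifted to GRCh37, by the nearest start within 1000 nt on the same strand, and FPKM by symbol (960 of 979 members, 53 through an older symbol). CpG islands were computed from GRCh37 with the UCSC scoring (over 200 bp, GC at least 50%, CpG ratio over 0.6). Shares have exact Clopper-Pearson intervals and medians order-statistic intervals at 95%. No hypothesis test was run: calls of 1 library are not replicates. Python 3.11.15, numpy 2.4.6, pandas 2.3.3, scipy 1.17.1, numba 0.67.0, pysam 0.24.0 and matplotlib 3.10.9 were used, and distances, intervals and islands were tested on simulated data.

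The members, distance classes and gene lists were chosen with earlier results of these data known. Named genes are the locus the study shows (ACTL6A), the 10 highest FPKM, up to 4 per list, the sites at the limits, the 5 highest FPKM without a uaTSS, the 5 widest spans and genes with 2 sites. MYG1, BHLHE40, KIF23, PCBP1, THAP11, C2CD2L, DCAF10, SLC9C1 and IL7 were named after their values were seen.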

Additional observations from a re-analysis of the deposited data

How the results depend on the processing

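Of 62 alternatives, 54 gave a value inside the interval of the reported one, or a count within 1.5 times it, and none reversed a sign. A single gene TSS per gene, gene TSSs without another within 5000 nt, limits 25 nt further in on both sides and the uaTSS joined by position moved no value outside. The other 8 changed the annotation, window or definition of a measure and gave values outside the interval. The share in introns was 79.2% with the transcript that starts nearest, and the median exon 1 end was 244 nt with the longest exon 1. The share near the island edge was 59.8% with islands over 500 bp, GC at least 55% and CpG ratio over 0.65. It was 23.4% within 100 bp of the edge. The GC difference was 1.39 percentage points over 100 nt and 6.64 over 250 nt. CA alone was found at 40.4%, and a pyrimidine-purine start within 1 nt of the call at 77.3%. No replicate could be left out, since calls come from 1 library and FPKM is 1 merged column. No test between groups was run, paired or not. Motif shares at daTSSs and at their own gene TSSs come from the same promoters and were not compared as pairs. Depth limits the daTSS calls to positions that reached the authors' read threshold, and a weaker start could not be seen here.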

Other observations

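The daTSSs at 0.53 to 1 kb were spread over 23 chromosomes. Chromosome 1 held 98 of them, at 9.27% of its 1057 gene TSSs. The share of gene TSSs with such a daTSS was lowest on chromosome X, at 6.25% (20 of 320), and on chromosome 19, at 6.50% (49 of 754). It was highest on chromosome 18, with 22 of 147, and on chromosome 12, at 13.2% (73 of 555). Over all gene TSSs the share was 9.42%. These extremes were picked from 23 chromosomes, without intervals, and were not tested. Of the uaTSSs paired with these daTSSs, 237 of 595 (39.8%) lay 81 to 200 nt upstream and 84 (14.1%, 11.4% to 17.2%) lay over 400 nt upstream, beside 40.2% and 18.0% for the other daTSSs. Another called gene TSS within 5000 nt was present at 108 of the 979 gene TSSs (11.0%, 9.14% to 13.2%), beside 10.1% for the other daTSSs and 27.3% for gene TSSs without a daTSS. The authors' filters removed daTSSs within 1000 nt of other starts, and their part in this difference was not tested.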
